A study of Mus musculus with 18 samples.

Results

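The genes described here are 6 components of the renin-angiotensin system in mouse synovial fibroblasts: the precursor gene Agt, the peptidase genes Ace, Enpep and Mme, and the receptor genes Agtr1a and Agtr2. They were matched by symbol and are 6 of 32285 identifiers in the deposited count table. They were chosen because earlier results on these same libraries showed them to move, so their levels and fold changes are given as a description and carry no p-value. The cells were fibroblasts sorted from the paws of mice labelled WT, either naive or with arthritis induced by transfer of K/BxN serum (STIA). There were 6 groups of 3 libraries each. Naive cells received 10 ng/mL FGF2 with 50 ng/mL OPN, FGF2 alone, OPN alone or no factor, STIA cells received 50 ng/mL OPN or no factor, and stimulation lasted 3 days. FGF2 is a fibroblast growth factor and OPN is osteopontin, a secreted ligand of integrins. The labels give neither the age of the mice, nor the gates of the sort, nor the days in culture of unstimulated cells. They also do not say whether the 3 libraries of a group came from separate mice or cultures, so every p-value measures only the spread between these libraries.

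In the classical pathway renin cleaves angiotensinogen, the product of Agt, to angiotensin I, and angiotensin-converting enzyme, the product of Ace, trims that peptide to angiotensin II. Angiotensin II acts on the type 1 receptor (Agtr1a and, in rodents, Agtr1b), which drives vessel contraction and, in fibroblasts, matrix production, and on the type 2 receptor (Agtr2), which is often described as opposing it. Aminopeptidase A (Enpep) removes the first residue of angiotensin II, and neprilysin (Mme) cuts angiotensins, bradykinin, natriuretic peptides and substance P on the cell surface.

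The loci are given on GRCm38 as the deposited table has them, and all 6 are the same in GENCODE M21. Agt lies at chr8:124556534-124569706 on the minus strand, Ace at chr11:105967945-105989964 on the plus strand, Enpep at chr3:129269175-129332720 on the minus strand and Mme at chr3:63241537-63386030 on the plus strand. Agtr1a lies at chr13:30336441-30382867 and Agtr2 at chrX:21484544-21489164, both on the plus strand. Ace shares 295 exon bases with the antisense gene Gm11651, which had at most 1 count in any library. Agtr1a and its paralogue Agtr1b share 5.93% of their 25-base words and a longest common run of 66 bases, so a few reads could have been split between them.

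Promoters are shown so that the sequences at the start sites can be set beside the levels that follow. RefSeq promoter windows of GRCm38.p6, from 250 bases before to 50 bases after a start site, were found for 5 of the 6 genes, all but Agtr1a. They are printed 5′ to 3′ on the gene's own strand, with 1 start site per gene, and capitals mark matches to the searched motifs. The table holds a second window for Ace, starting at 105974939, and 2 more for Mme, starting at 63294961 and 63295845, the last overlapping the one shown.
Agt, chr8:124569657-124569956, minus strand: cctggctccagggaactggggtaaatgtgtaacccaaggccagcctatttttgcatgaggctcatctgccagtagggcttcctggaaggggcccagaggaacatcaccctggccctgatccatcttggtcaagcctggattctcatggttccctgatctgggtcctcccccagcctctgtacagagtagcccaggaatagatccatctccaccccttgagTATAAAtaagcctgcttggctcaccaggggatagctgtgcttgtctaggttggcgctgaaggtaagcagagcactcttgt
Ace, chr11:105967698-105967997, plus strand: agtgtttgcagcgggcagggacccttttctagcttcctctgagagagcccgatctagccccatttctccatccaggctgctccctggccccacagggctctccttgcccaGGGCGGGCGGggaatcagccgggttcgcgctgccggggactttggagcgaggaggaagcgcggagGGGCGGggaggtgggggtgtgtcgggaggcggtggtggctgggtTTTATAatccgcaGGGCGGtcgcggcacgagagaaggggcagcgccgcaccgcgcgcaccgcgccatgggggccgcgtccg
Enpep, chr3:129332700-129332999, minus strand: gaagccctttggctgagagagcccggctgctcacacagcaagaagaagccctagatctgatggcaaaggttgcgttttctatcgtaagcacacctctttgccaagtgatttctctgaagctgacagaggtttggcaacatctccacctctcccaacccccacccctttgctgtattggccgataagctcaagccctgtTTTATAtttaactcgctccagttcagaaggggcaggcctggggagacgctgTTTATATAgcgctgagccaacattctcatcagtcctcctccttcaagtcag
Mme, chr3:63295622-63295921, plus strand: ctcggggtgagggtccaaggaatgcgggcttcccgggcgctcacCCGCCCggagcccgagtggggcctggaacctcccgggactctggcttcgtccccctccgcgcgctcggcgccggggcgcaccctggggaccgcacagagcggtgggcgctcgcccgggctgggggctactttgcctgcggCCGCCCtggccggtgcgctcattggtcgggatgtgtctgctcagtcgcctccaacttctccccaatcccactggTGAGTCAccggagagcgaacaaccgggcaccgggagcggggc
Agtr2, chrX:21484374-21484673, plus strand: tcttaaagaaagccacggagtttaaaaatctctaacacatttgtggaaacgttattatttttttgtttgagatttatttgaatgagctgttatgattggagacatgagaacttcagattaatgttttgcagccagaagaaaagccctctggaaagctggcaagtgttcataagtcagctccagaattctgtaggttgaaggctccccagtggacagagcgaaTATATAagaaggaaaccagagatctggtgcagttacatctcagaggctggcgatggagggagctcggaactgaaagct

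The motifs searched on both strands were the TATA box, searched as TATANA, the GC box (GGGCGG), the AP-1 site (TGANTCA), the E-box (CACGTG) and the ETS site (CCGGAAG). The promoters of Agt, Ace and Agtr2 had a TATA match whose first base lay 30, 31 and 28 bases before the start site, in that order. Ace also had 4 GC boxes, of which 2 overlap, and Enpep had 3 TATA matches, of which 2 overlap at the start site. The TATA match of Ace reads tttata and fits TATANA only on the opposite strand, as do the Enpep matches that read tttata. Mme had 2 GC boxes and an AP-1 match 8 bases after the start site, with no TATA match in the window. The Ace window not shown had no match to any of these motifs. Of the Mme windows not shown, the first had 1 GC box and no AP-1 match, and the overlapping one had 2 GC boxes and the same AP-1 match. Among all 32851 promoter windows of the same length, 24.7% held the TATA letters, 35.7% the GC box, 7.81% the AP-1 site, 7.15% the E-box and 8.86% the ETS site. These matches describe the letters only.

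Libraries held 27527043 to 40357342 counts, so that 3 counts, used as the floor, correspond to 0.0743 to 0.109 CPM (counts scaled to a common library total) and cover counting error only. CPM values below are on library sizes scaled by TMM unless plain totals are named. Fibroblast transcripts were abundant in every library, and the 8 fibroblast markers together held 19103 to 67255 CPM of plain totals. On the same scale the endothelial genes Tie1 and Cldn5 reached at most 0.0542 CPM and the leukocyte gene Ptprc at most 0.253 CPM, but the endothelial markers Kdr, Tek and Cdh5 reached 10.1, 11.4 and 3.79 CPM. One library stood apart: over all genes the typical log2 difference of FGF2 replicate 2 from its fellow replicates was 0.416 (root mean square), and that of the others 0.294 to 0.363. Values of Ace and Agtr2 that rest on it are given with and without it, as is the mean of the marker Rgs5. Fold changes and adjusted p of the other list genes are given only with it. Those of these genes that were highest in it of the 3 FGF2 libraries include Anpep, Agtr1b, Ednrb, Bdkrb2, Tacr1 and Nppc.

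Agt was near the floor in 5 groups and present with both factors. FGF2 plus OPN libraries held 3.57, 3.92 and 3.92 CPM, FGF2 libraries 0.133, 0.297 and 0.545 CPM, and OPN libraries 0.326, 0.258 and 0.268 CPM. STIA libraries with OPN held 0.110, 0.112 and 0.297 CPM, STIA libraries without it 0.303, 0.182 and 0.284 CPM, and naive libraries 0.126, 0.248 and 0.486 CPM. In raw numbers that is 118 to 142 counts with both factors, against 3 to 18 counts in any other library. The joint group therefore stood clear of all 15 other libraries, while the other 5 groups overlapped one another. The log2 fold change of FGF2 plus OPN was 3.51 ± 0.37 (SE) against FGF2, 3.72 ± 0.37 against OPN and 3.73 ± 0.38 against naive cells. Without naive replicate 3 the last of these was 4.33, and without FGF2 replicate 3 the first was 4.11. FGF2 alone gave 0.22 ± 0.49 and OPN alone 0.01 ± 0.49 against naive cells, and the sign of both turned with the library left out. For FGF2 the value was -0.39 without FGF2 replicate 3 and 0.83 without naive replicate 3, and for OPN it was -0.37 without naive replicate 1 and 0.62 without naive replicate 3. Agt passed the filter on low counts only through the joint group, with 5 of 18 libraries above the cutoff of 0.325 CPM, and so had to differ to be tested at all.

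Ace, the converting enzyme, was the peptidase gene with the widest span as a ratio between its highest and lowest libraries. It stood at 117.8, 123.1 and 112.0 CPM in FGF2 plus OPN libraries, 29.5, 89.3 and 27.4 CPM in FGF2 libraries and 5.22, 10.4 and 5.42 CPM in OPN libraries. STIA libraries with OPN had 3.23, 2.49 and 2.71 CPM, STIA libraries without it 1.96, 1.89 and 1.99 CPM, and naive libraries 7.45, 8.22 and 6.39 CPM. The joint group and the FGF2 group lay above every other library, OPN overlapped naive, and both STIA groups lay below all the naive and OPN libraries. Against naive cells, FGF2 plus OPN gave a log2 fold change of 4.0 ± 0.43, FGF2 of 2.73 ± 0.42, OPN of -0.05 ± 0.46 and STIA of -1.92 ± 0.57. These values lean on FGF2 replicate 2: without it the change of FGF2 against naive cells was 1.95 and that of FGF2 plus OPN against FGF2 was 2.05, instead of 1.27 ± 0.36. The loss in STIA cells missed the threshold when STIA replicate 1, STIA replicate 2 or naive replicate 2 was left out, although its size stayed between -2.01 and -1.83 whichever library was left out. Without FGF2 replicate 2, a library of neither group, the loss was -1.92 ± 0.25 and passed.

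Enpep, aminopeptidase A, was lower with FGF2 than in naive cells and higher with both factors. Libraries with FGF2 plus OPN had 13.7, 17.6 and 14.5 CPM, FGF2 libraries 2.10, 2.71 and 1.91 CPM, OPN libraries 5.50, 4.69 and 5.99 CPM, and naive libraries 7.61, 7.05 and 8.30 CPM. STIA libraries had 3.30, 3.10 and 3.57 CPM with OPN and 2.12, 2.40 and 2.34 CPM without it. FGF2 and untreated STIA cells overlapped at the bottom of the order, and the other 4 groups were each clear of the next one. FGF2 alone gave a log2 fold change of -1.77 ± 0.15, OPN alone of -0.51 ± 0.14, FGF2 plus OPN of 0.99 ± 0.13 and STIA of -1.75 ± 0.15 against naive cells. Enpep was thus lower with each factor alone, while FGF2 plus OPN gave 2.77 ± 0.15 against FGF2.

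Mme, neprilysin, reached the highest counts of the 6 genes. It had 181.4, 210.4 and 145.0 CPM in FGF2 plus OPN libraries, 17.3, 18.3 and 17.9 CPM in FGF2 libraries, 52.7, 49.4 and 59.9 CPM in OPN libraries and 35.2, 32.1 and 34.8 CPM in naive libraries. STIA libraries had 15.9, 16.2 and 18.01 CPM with OPN and 19.0, 17.1 and 16.2 CPM without it. The joint group was highest, OPN next and naive after it, with no overlap between them, whereas FGF2 and both STIA groups shared the lowest range. The log2 fold changes against naive cells were 2.39 ± 0.10 for FGF2 plus OPN, -0.93 ± 0.11 for FGF2, 0.66 ± 0.10 for OPN and -0.96 ± 0.11 for STIA. Against FGF2 the joint group stood 3.33 ± 0.11 higher on the log2 scale.

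**Figure D1:**
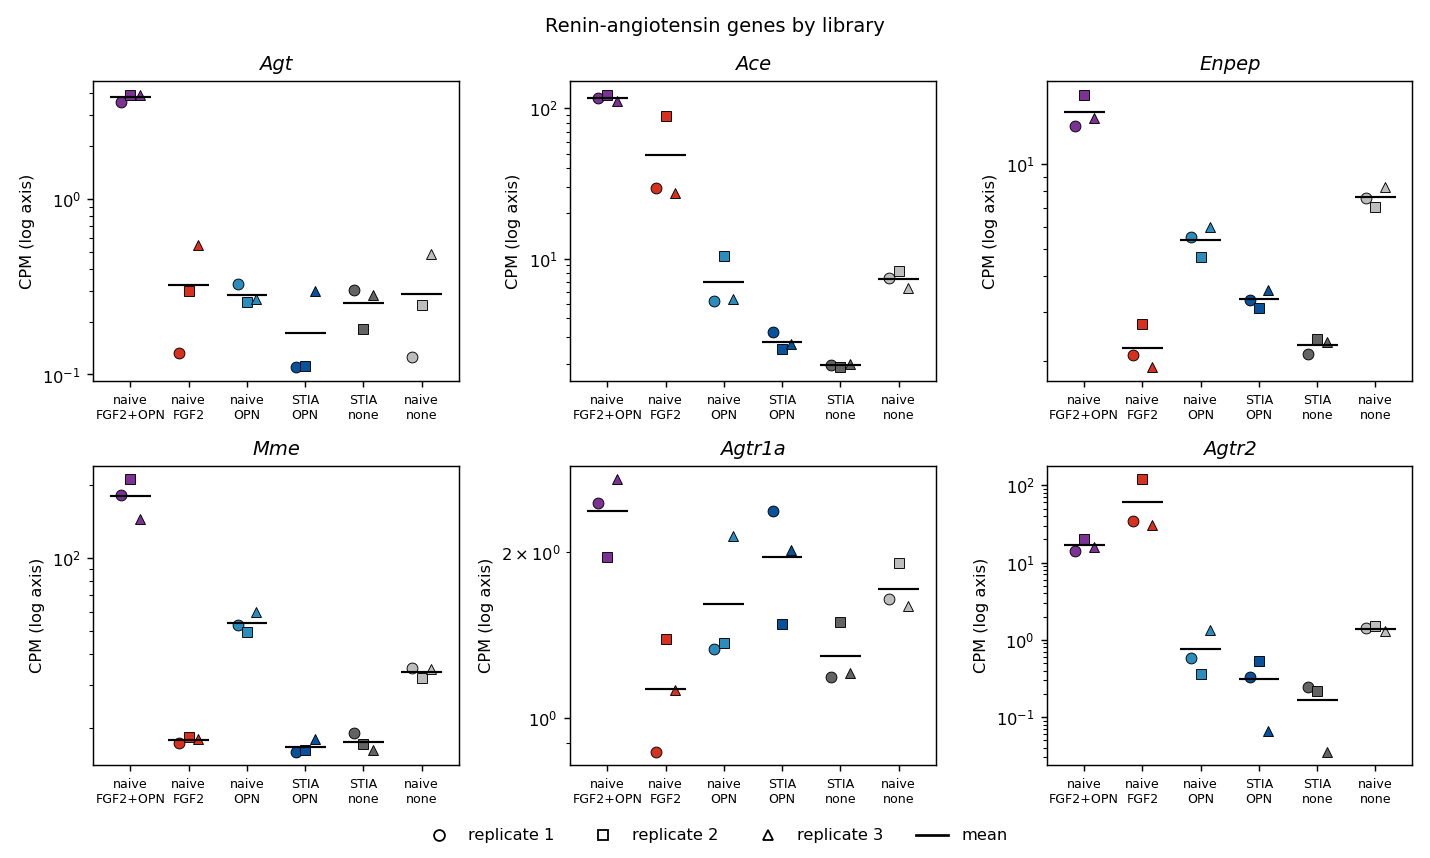
Level of each gene in CPM (log axis) in each of the 18 libraries, with 1 panel per gene, a symbol per replicate number and a bar at the group mean. With FGF2 plus OPN, Agt (3.57 to 3.92 CPM), Enpep (13.7 to 17.6 CPM) and Mme (145.0 to 210.4 CPM) lie above all other libraries, and FGF2 replicate 2 stands apart in Ace (89.3 CPM) and Agtr2 (119.8 CPM).

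Agtr1a, the main type 1 receptor gene of the mouse, was low throughout and moved least. FGF2 plus OPN libraries had 2.46, 1.96 and 2.72 CPM, FGF2 libraries 0.867, 1.39 and 1.12 CPM, and OPN libraries 1.33, 1.37 and 2.14 CPM. STIA libraries had 2.38, 1.48 and 2.02 CPM with OPN and 1.18, 1.49 and 1.21 CPM without it, and naive libraries had 1.64, 1.91 and 1.60 CPM. Every group overlapped its neighbour in the order of levels, although the joint group was clear of the FGF2 group. FGF2 plus OPN gave 1.08 ± 0.24 against FGF2 on the log2 scale and 0.47 ± 0.23 against naive cells, which missed the threshold. The change of FGF2 against naive cells, -0.61 ± 0.25, lost its call in 13 of 26 alternative settings, and that of FGF2 plus OPN against OPN, 0.58 ± 0.23, in 5.

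Agtr2, the type 2 receptor gene, followed FGF2 and was the only member lower with both factors than with FGF2 alone. It had 14.1, 20.4 and 16.1 CPM in FGF2 plus OPN libraries, 34.5, 119.8 and 30.6 CPM in FGF2 libraries, and 0.578, 0.361 and 1.34 CPM in OPN libraries. STIA libraries had 0.330, 0.531 and 0.066 CPM with OPN and 0.248, 0.218 and 0.036 CPM without it, the last being 1 count, and naive libraries had 1.42, 1.49 and 1.29 CPM. The 6 libraries with FGF2 lay above the other 12, and within them FGF2 alone lay above FGF2 plus OPN. Against naive cells the log2 fold change was 3.59 ± 0.61 with FGF2 plus OPN and 5.46 ± 0.60 with FGF2, and the joint group stood at -1.87 ± 0.45 against FGF2. Without FGF2 replicate 2 these values were 3.58, 4.54 and -0.95, all still past the threshold. The STIA level was lower than the naive level with no overlap, at -2.98 ± 1.29, and passed the threshold in 5 of 26 alternative settings but not in the model reported. Among these settings was the fit without FGF2 replicate 2, a library of neither group, at -2.98 ± 0.56.

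The order of the receptors and enzymes in abundance can be read only per length, in TPM (a length-scaled share of all transcripts) computed from the counts and the deposited exon lengths. With FGF2 plus OPN, mean levels were 89.6 ± 8.83 TPM for Ace, 62.7 ± 14.5 for Mme, 20.5 ± 4.51 for Agtr2, 13.1 ± 2.22 for Enpep, 8.08 ± 0.509 for Agt and 3.42 ± 0.414 for Agtr1a (SD, n = 3). With FGF2 alone Agtr2 came first at 69.1 ± 54.5 TPM and Ace next at 34.4 ± 23.8, while Mme held 5.85 ± 0.0664 TPM. Without FGF2 replicate 2 the FGF2 means were 37.6 TPM for Agtr2 and 20.7 TPM for Ace, in the same order. In naive cells Mme led at 11.4 ± 0.779 TPM, followed by Enpep at 6.31 ± 0.605 and Ace at 5.39 ± 0.606. Agtr2 thus stood above Agtr1a in both FGF2 groups and below it in the other 4, where Agtr2 averaged 0.195 to 1.63 TPM and Agtr1a 1.79 to 2.73 TPM.

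**Figure D2:**
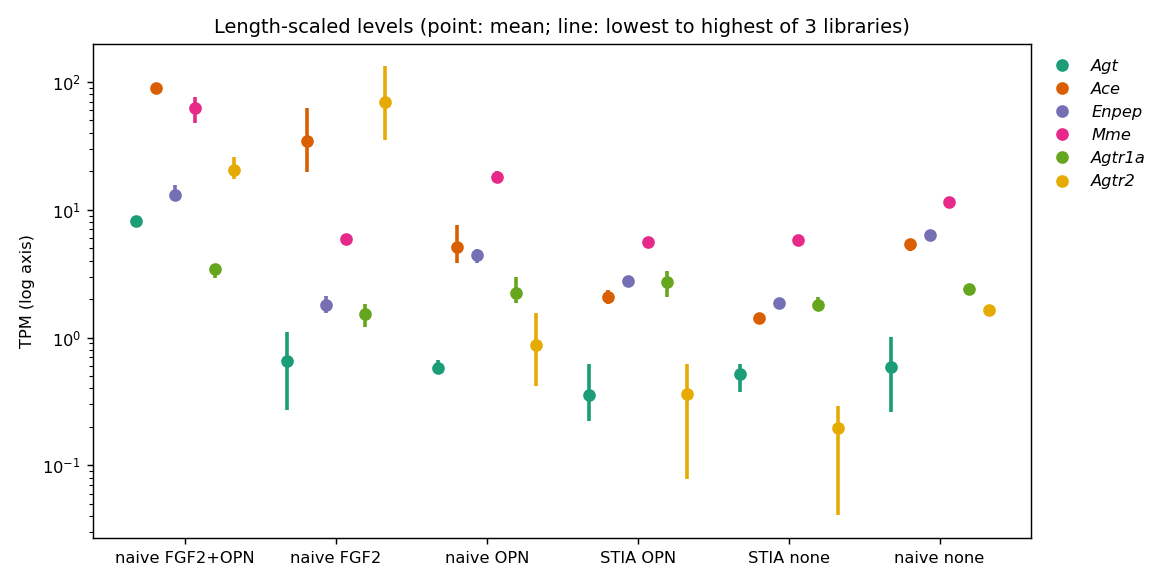
Length-scaled levels of the 6 genes in TPM (log axis) by group, where a point is the mean and a line runs from the lowest to the highest of 3 libraries. Agtr2 (yellow) lies above Agtr1a (green) only in the 2 groups with FGF2, and Agt reaches 8.08 TPM only in the joint group.

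The 7 comparisons between groups share libraries, since FGF2, OPN and naive cells each serve in several, so their values are set side by side and not as separate evidence. Counts are of genes with an edgeR quasi-likelihood adjusted p below 0.05. Against naive cells, 5 of 6 members passed with FGF2, against 57.1% of all 15072 genes tested, 2 with OPN, against 31.7%, and 5 with FGF2 plus OPN, against 49.8%. STIA against naive cells called 3 members, against 36.8% of genes, and all 3 (Ace, Enpep and Mme) were lower. FGF2 plus OPN called all 6 against FGF2 alone, where 58.4% of genes passed, and all 6 against OPN alone, where 56.5% passed. Ace and Agtr2 no longer passed against FGF2 when only the groups compared were fitted. Because the members were chosen on these contrasts, nothing is read from these shares.

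The fit also asked whether the OPN effect differed with and without FGF2 (the interaction), a term that 51.2% of all genes passed. It was positive for Agt at 3.50 ± 0.64, Enpep at 3.28 ± 0.20, Mme at 2.66 ± 0.15 and Agtr1a at 1.19 ± 0.34 on the log2 scale, which are the 4 members that passed. The Agt value was 2.89 without naive replicate 3 and 4.11 without FGF2 replicate 3. Agt passed the filter on low counts only through the joint group. It had to stand high there to be tested, so nothing is read from its call in this term. Ace gave 1.33 ± 0.59 and did not pass in the model reported. It passed in 6 of 26 alternative settings. With all 18 libraries these were DESeq2, limma-voom, the replicate block and the fit of all genes with a count, and the others were the fits without FGF2 replicate 2 (2.10) and without OPN replicate 2 (1.74). Agtr2 gave -0.91 ± 1.05, or 0.01 without FGF2 replicate 2.

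OPN on STIA cells moved few genes in the model reported, with 2.17% of all genes called (327 of 15072), and no member passed. The number of genes called depended on the setting. It was 1367 of 13843 when only the groups compared were fitted, and 948 of 24146 when all genes with a count were kept. DESeq2 called 626 and limma-voom 344 of 15072 genes, and fits without a single library called 38 to 615. At an unadjusted p below 0.05, 2 members passed in the model reported. The share of all genes at that threshold is not given here, so nothing is read from this count. By adjusted p, DESeq2 and limma-voom each called 0 members. The nearest was Enpep, at 3.10 to 3.57 CPM with OPN against 2.12 to 2.40 CPM without it, a log2 fold change of 0.54 ± 0.16. Enpep passed in 3 of 26 alternative settings: all genes with a count, only the groups compared, and without FGF2 replicate 2. Mme gave -0.07 ± 0.11. The OPN effect in STIA cells minus that in naive cells passed for 22.3% of genes and for 2 members, at 1.05 ± 0.21 for Enpep and -0.73 ± 0.15 for Mme.

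**Figure D3:**
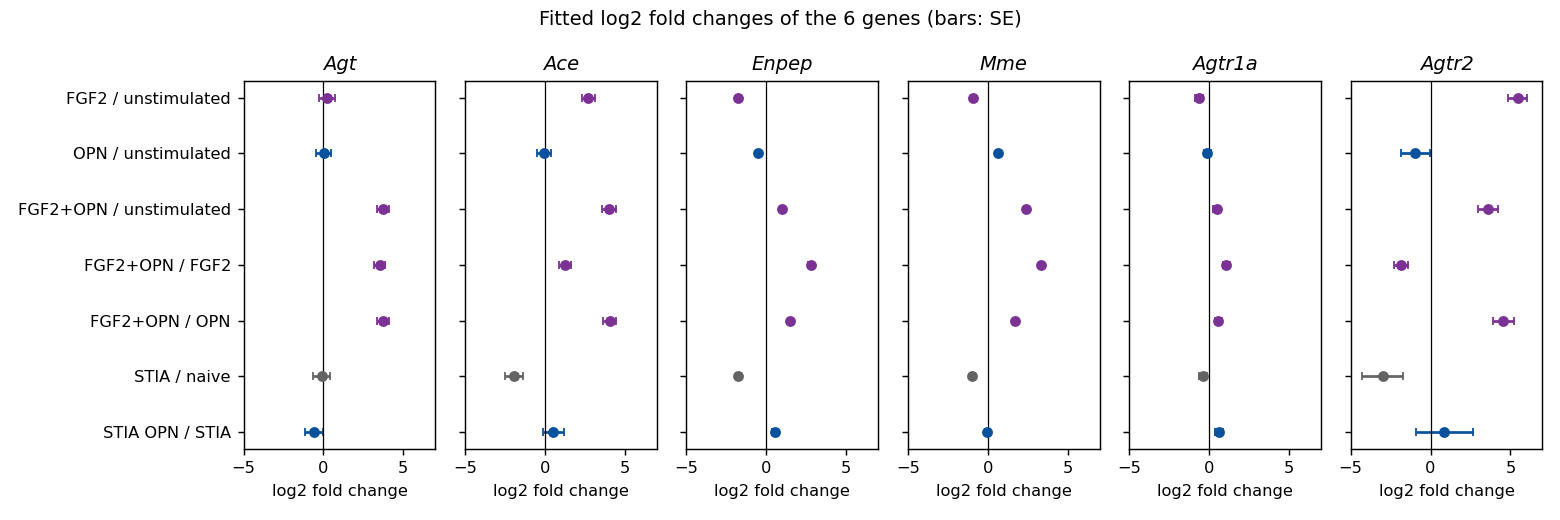
Fitted log2 fold change of each gene (point) with its SE (bar) in 7 comparisons, from the model over all 18 libraries, where values right of 0 are higher in the group named first. FGF2 plus OPN lies right of 0 against FGF2 in 5 genes, between 1.08 for Agtr1a and 3.51 for Agt, and left of 0 at -1.87 for Agtr2.

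Other genes of angiotensin formation, breakdown and reception were read from a list of 23, of which 14 had enough counts to be tested. Renin itself was not seen: Ren1 had 0 counts in all 18 libraries, which allows up to 0.0743 to 0.109 CPM per library. The receptor gene Mas1 had 13 counts in all libraries together, the mast cell chymase gene Cma1 21 and the cathepsin G gene Ctsg 13. Ctsd, the lysosomal protease cathepsin D, which can cleave angiotensinogen in the test tube, held 1254 to 2117 CPM of plain totals. Atp6ap2, the gene of the prorenin receptor, held 114 to 177 CPM on the same scale. Agtr1b, the rodent paralogue of Agtr1a, had 21, 27 and 23 counts in FGF2 libraries, against 3, 1 and 3 with both factors and 0, 0 and 1 in naive libraries. It passed in FGF2 against naive cells (edgeR adjusted p = 2.00e-06) and in FGF2 plus OPN against FGF2 (adjusted p = 2.38e-05). Only the FGF2 libraries, at 0.697 to 0.892 CPM, lay above the cutoff of the filter on low counts, so that Agtr1b, like Agt, had to differ to be tested at all.

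Of these 14 tested genes, 5 rose and 7 fell in FGF2 plus OPN against FGF2, with a median log2 fold change of -0.10, where 58.4% of all genes passed and their median was -0.01. Anpep, aminopeptidase N, which trims angiotensin III, had 647.8, 731.9 and 709.6 CPM in joint libraries, 310.0, 466.4 and 307.7 CPM in FGF2 libraries and 318.4, 330.8 and 297.9 CPM in naive libraries. It was the largest rise of the list against FGF2 (0.95 ± 0.18, edgeR adjusted p = 3.40e-04), against naive cells (1.14 ± 0.18, adjusted p = 9.41e-05) and in the interaction (1.59 ± 0.25, adjusted p = 9.82e-05). Ctsa, a lysosomal carboxypeptidase, rose by 0.58 ± 0.07 against FGF2 (adjusted p = 1.75e-07). The oligopeptidase genes Nln and Prep fell, by 0.74 ± 0.06 (adjusted p = 3.76e-10) and by 0.53 ± 0.09 (adjusted p = 2.23e-05). In STIA against naive cells, where 36.8% of all genes passed, 4 of the 14 rose and 4 fell. Anpep fell to 63.0, 63.1 and 72.9 CPM in STIA libraries, a log2 fold change of -2.25 ± 0.19 (adjusted p = 6.31e-07), while the other 7 called genes changed by 0.37 or less in size.

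Neighbouring vasoactive peptide genes, 18 tested of a list of 22, moved widely with FGF2. Against naive cells 5 rose and 12 fell with FGF2, with a median log2 fold change of -1.29, and 57.1% of all genes passed. Kng1 and Kng2 encode the kininogens from which bradykinin, a substrate of both Ace and Mme, is released. Kng1 had 44.2, 50.2 and 50.4 CPM in joint libraries, 0.80, 0.53 and 0.36 CPM in FGF2 libraries, 5.02, 2.73 and 5.52 CPM in OPN libraries and 11.1, 12.3 and 11.5 CPM in naive libraries. Its log2 fold change was 6.42 ± 0.26 for FGF2 plus OPN against FGF2 (edgeR adjusted p = 2.34e-13) and -4.37 ± 0.28 for FGF2 against naive cells (adjusted p = 8.34e-11). Kng2 changed in the same directions, by 3.72 ± 0.12 for the joint group against FGF2 (adjusted p = 1.44e-16). The paralogues share 32.6% of their 25-base words, so reads may have been divided between them.

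The bradykinin receptor genes went opposite ways. Bdkrb1 fell by 3.08 ± 0.46 with FGF2 against naive cells (adjusted p = 6.84e-06) and rose by 2.93 ± 0.46 in FGF2 plus OPN against FGF2 (adjusted p = 1.4e-05). Bdkrb2 had 9.17, 17.6 and 8.84 CPM in FGF2 libraries against 0.789, 0.957 and 0.764 CPM in naive libraries, and fell by 2.48 ± 0.23 in FGF2 plus OPN against FGF2 (adjusted p = 4.22e-09). Ednrb, an endothelin receptor gene, had 14.8, 15.9 and 11.8 CPM in joint libraries against 0.833, 1.55 and 0.787 CPM in FGF2 libraries (3.74 ± 0.21, adjusted p = 1.84e-12). Tacr1, the receptor of substance P, which neprilysin cuts, had 5.97, 11.1 and 5.42 CPM in FGF2 libraries against 0.0631, 0.0354 and 0.139 CPM in naive libraries. Nppc, the precursor gene of C-type natriuretic peptide, had 111, 169 and 106 counts in FGF2 libraries, against 17, 17 and 14 in joint libraries and 0, 4 and 0 in naive libraries. Over the whole list 9 genes rose and 6 fell in the joint group against FGF2, with a median of 0.51, where 58.4% of all genes passed. In STIA against naive cells, where 36.8% passed, 2 rose and 7 fell, among them Kng1 by 2.48 ± 0.23 (adjusted p = 1.57e-07) and Ramp2, a subunit of the adrenomedullin receptor, by 2.33 ± 0.23 (adjusted p = 1.01e-07).

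**Figure D4:**
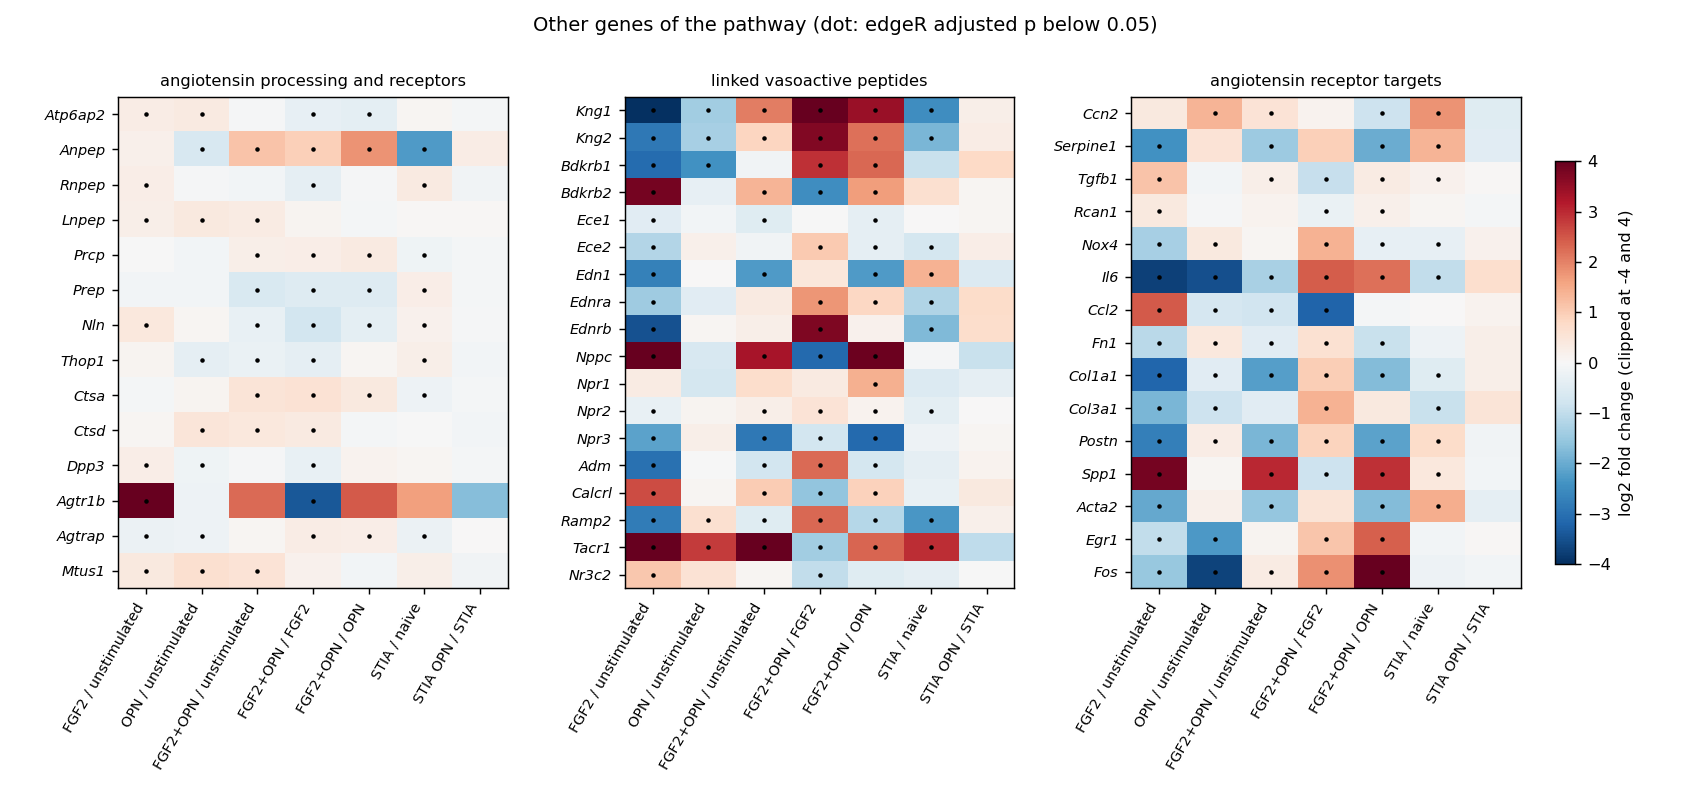
Log2 fold changes (colour, clipped at -4 and 4) of the 47 tested genes of the 3 further lists in 7 comparisons, where red is higher in the group named first and a dot marks an edgeR adjusted p below 0.05. Kng1 (6.42) and Kng2 (3.72) are red in FGF2 plus OPN against FGF2, and no gene has a dot in STIA with OPN against STIA.

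Genes known to respond to type 1 receptor signalling in fibroblasts, all 15 of a list tested, were mostly lower with FGF2. Against naive cells 4 rose and 10 fell with FGF2 (median -1.32, where 57.1% of all genes passed), and 4 rose and 7 fell with FGF2 plus OPN (median -0.44, where 49.8% of all genes passed). Col1a1, a collagen chain, fell by 3.18 ± 0.12 with FGF2 (adjusted p = 3.72e-16) and by 2.20 ± 0.11 with both factors (adjusted p = 6.42e-13). In FGF2 plus OPN against FGF2, where 58.4% of all genes passed, 8 rose and 4 fell, among them the oxidase gene Nox4 (1.38 ± 0.09, adjusted p = 1.15e-11) and the chemokine gene Ccl2 (-3.20 ± 0.20, adjusted p = 7.37e-09). Against naive cells 6 rose and 4 fell in STIA cells, where 36.8% of all genes passed, with Ccn2, connective tissue growth factor, at 1.80 ± 0.21 (adjusted p = 1.87e-05) and Acta2, smooth muscle actin, at 1.45 ± 0.29 (adjusted p = 1.73e-03). Over the 3 lists, 0 of 47 genes passed in STIA cells with OPN against those without it by edgeR. At an unadjusted p below 0.05 there were 13. The share of all genes at that threshold is not given here, so nothing is read from this count. By adjusted p, DESeq2 called 1 and limma-voom 0. In OPN against naive cells, where 31.7% of all genes passed, 10 of the 47 rose and 13 fell.

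Markers of fibroblasts and of other cells moved in some of the same groups. The 8 fibroblast markers summed to 24907 to 28435 CPM of plain totals with both factors, 19103 to 19392 CPM with FGF2 and 59530 to 67255 CPM in naive cells. With both factors against FGF2, 7 of them were higher and 1 lower, where 58.4% of all genes passed. With FGF2 against naive cells, 2 were higher and 4 lower, where 57.1% passed. Of the 7 pericyte markers, Rgs5 averaged 41.3 CPM of plain totals with FGF2 plus OPN, 42.0 CPM with FGF2 and 2.16 CPM in naive cells, and Abcc9 averaged 8.66, 0.368 and 1.51 CPM in the same order. The Rgs5 mean with FGF2 was 27.7 CPM without FGF2 replicate 2. The sum of the list was 248 to 261 CPM with both factors, 262 to 374 CPM with FGF2 and 300 to 316 CPM in naive cells, and Higd1b stayed at or below 0.0334 CPM in every library. Among the 6 that were tested, 4 were higher and 1 lower with both factors than with FGF2, where 58.4% of all genes passed. With FGF2 against naive cells, 1 of these 6 was higher and 4 were lower, where 57.1% of all genes passed. The 8 endothelial markers summed to 7.81 to 8.17 CPM with both factors, 15.1 to 15.5 CPM with FGF2 and 10.8 to 13.1 CPM in naive cells. Among the 5 of them that were tested, 3 were higher and 1 lower with FGF2 than in naive cells, where 57.1% of all genes passed. With both factors against FGF2, 1 was higher and 2 lower, where 58.4% of all genes passed. Kdr averaged 0.735 CPM with both factors, 9.31 CPM with FGF2 and 1.0 CPM in naive cells, Cdh5 averaged 0.926, 3.58 and 0.707 CPM, and Tek averaged 4.44, 1.14 and 9.49 CPM in the same order. The smooth muscle list summed to 297 to 558 CPM with both factors, 138 to 347 CPM with FGF2, 2916 to 3045 CPM in STIA and 983 to 1127 CPM in naive cells. In FGF2 replicate 2 that list was lowest, at 138 CPM against 314 and 347 CPM in the other FGF2 libraries. Macrophage markers summed to 22.3 to 23.6 CPM with both factors, 47.6 to 52.8 CPM with FGF2 and 12.7 to 14.2 CPM in naive cells, of which Cd14 averaged 15.5, 44.9 and 5.85 CPM in the same order. The other macrophage markers did not move together. Cd68 averaged 4.27, 3.97 and 1.21 CPM, Csf1r 1.68, 0.492 and 2.84 CPM and Lyz2 1.29, 0.594 and 3.75 CPM in that order. Among the 4 that were tested, 2 were higher and 2 lower with FGF2 than in naive cells, where 57.1% of all genes passed. Mast cell and adipocyte lists stayed at or below 0.749 CPM. The part of these markers in the results above was not tested, and in bulk RNA a change in the share of cells that express a gene cannot be told apart from a change per cell.

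The genes whose levels followed each member most closely over the 18 libraries were found by Pearson r of log2 CPM, as a description of libraries that fall into 6 groups. For Agt they were Hgf, hepatocyte growth factor (0.922), Pcdhgc3 (0.920) and the transcription factor gene Pax1 (0.908). Agt passed the filter on low counts only through the joint group, so its r mainly reflects being high there, and nothing is read from it. Ace was most like Ctps2 (0.984), Wdr45 (0.982) and Cebpa (0.979), and Enpep most like Gas1 (0.984), Pax9 (0.983) and Asap3 (0.983). Mme was most like Fzd9 (0.974), Gdf10 (0.972) and Gm2a (0.972), and Agtr2 most like Fam102a (0.981), Dab2 (0.979) and Sqor (0.973). Agtr1a had no close counterpart, with Tenm3 (0.834), Ifnar2 (0.834) and Slpi (0.825) at the top. No gene appears under more than 1 member. Hgf averaged 180 CPM with both factors, against 56.1 CPM with FGF2, 56.0 CPM with OPN and 55.8 CPM in naive cells, and 45.3 and 42.6 CPM in STIA cells with and without OPN.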

How the data were processed

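RNA of 18 libraries of paw fibroblasts was sequenced on a NovaSeq X Plus, per the labels. The authors deposited unnormalised read counts for each gene in each library, obtained with STAR and featureCounts on GRCm38 (mm10), per the submitters' processing notes. Not given in the sources used here: versions, annotation release and strand setting. The table has 32285 identifiers, of which 32158 were matched to symbols of GENCODE M21. Library totals ran from 27527043 to 40357342 counts.

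Genes were kept by filterByExpr (minimum count 10, 15072 genes), scaled by TMM and fitted with 1 mean per group over all 18 libraries by robust quasi-likelihood in edgeR 4.0.16 (R 4.3.3). The 9 contrasts were tested two-sided by the F test with Benjamini-Hochberg adjustment over all 15072 genes, and called below 0.05. Fold changes carry a prior count of 0.125, and each SE is derived from the fold change and its F statistic. CPM is on TMM-scaled sizes, except where plain totals are named. TPM was computed from the counts and the table's exon lengths. Likeness was measured on log2 CPM (prior count 2). The code was tested on simulated data.

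The 6 members and the 3 lists of 60 other genes were chosen with earlier results of these data known, so the count of list genes called describes these libraries only. Of the lists, each comparison could name the 3 largest rises and 3 largest falls per list among called genes. Bdkrb1 in FGF2 plus OPN against FGF2 and the levels of Ctsd and Atp6ap2 fall outside that rule and were named after their values were seen. Agt and the other members are all named. Promoters came from RefSeq (GRCm38.p6), and none was found for Agtr1a in the set used here.

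Over 18 replicate pairs 0 were identical, and chi-square per degree of freedom ran from 4.62 to 43.7. Same-numbered libraries were checked for pairing: correlations of their deviations from the group means ran from -0.104 to 0.199, with 2 of 45 above 0.1, so no block was used. Alternatives were RLE size factors, library totals alone, all 24146 genes with a count, a filter of 1 CPM in 3 libraries, DESeq2 1.42.0, limma-voom (limma 3.58.1), only the groups compared, a replicate block, and leaving out each library.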

Additional observations from a re-analysis of the deposited data

Results flagged for a closer look

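The difference in the effect of OPN between STIA cells and naive cells, tested as its own term in the edgeR model, passed for 22.3% of all genes. It passed for 2 of 6 members and 18 of 47 other list genes. Described here are 15 of these 20 genes: both members, and of each list up to 3 with the largest difference in each direction. Values are log2 fold changes, the effect in STIA cells first and that in naive cells after it. No explanation was tested.

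Of the peptidase genes, Enpep changed by 0.54 ± 0.16 with OPN in STIA cells and by -0.51 ± 0.14 in naive cells, a difference of 1.05 ± 0.21, and Mme by -0.07 ± 0.11 and 0.66 ± 0.10, a difference of -0.73 ± 0.15. Both were chosen with results in view, so no p is given. Anpep differed by 0.94 ± 0.25 (adjusted p = 0.0163), with 0.29 ± 0.18 in STIA and -0.64 ± 0.18 in naive cells.

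The kinin and tachykinin genes differed by 1.65 ± 0.33 for Kng1 (adjusted p = 0.00146), 1.63 ± 0.16 for Kng2 (adjusted p = 2.26e-07), 3.21 ± 0.56 for Bdkrb1 (adjusted p = 0.000298) and -3.81 ± 0.75 for Tacr1 (adjusted p = 0.000824). In naive cells OPN lowered Kng1, Kng2 and Bdkrb1 and raised Tacr1. In STIA cells none of the 4 passed by edgeR, with changes of 0.24 for Kng1, 0.30 for Kng2, 0.78 for Bdkrb1 and -1.02 for Tacr1.

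Among genes known to respond to the type 1 receptor, the early response genes Fos and Egr1 and the cytokine gene Il6 differed most, by 3.61 ± 0.13 (adjusted p = 9.26e-14), 2.34 ± 0.08 (adjusted p = 3.69e-15) and 4.20 ± 0.41 (adjusted p = 3.38e-07) in that order. Fos changed by -0.11 ± 0.09 in STIA and -3.72 ± 0.10 in naive cells, Egr1 by 0.06 ± 0.05 and -2.28 ± 0.06, and Il6 by 0.69 ± 0.26 and -3.51 ± 0.32. Ccn2 differed by -1.85 ± 0.29 (adjusted p = 0.000504). The matrix gene Postn differed by -0.44 ± 0.16 (adjusted p = 0.0499), close to the threshold, and did not pass by limma-voom or when most single libraries were left out. The other genes named from the list of angiotensin formation, breakdown and reception were Atp6ap2, Ctsd and Mtus1. They differed by -0.45 ± 0.09 (edgeR adjusted p = 0.00138), -0.61 ± 0.09 (adjusted p = 7.56e-05) and -0.79 ± 0.14 (adjusted p = 0.000191) in that order.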

How the results depend on the processing

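Of 54 values of a member in a comparison, 40 kept their call in every alternative setting that gave a value (26, or 25 for 6 of the values) and 14 did not, and none changed sign while called. With OPN on STIA cells, where the model reported called 0 members and 0 of 47 other genes, keeping all genes with a count called 2 and 10, fitting only the groups compared called 1 and 11, DESeq2 called 1 other gene, and leaving out single libraries called 0 to 1 and 0 to 3, the highest in both without FGF2 replicate 2. For the other genes, leaving out FGF2 replicate 3, FGF2 plus OPN replicate 3, OPN replicate 2 or OPN replicate 3 each called 1. Without FGF2 replicate 2, the members called were 4 in STIA against naive cells and 5 in the interaction, and the remaining counts of members were as reported. Of all 15381 genes in that fit, 5866 and 7911 passed in these 2 terms, against 5550 and 7723 of 15072 as reported. Keeping all genes with a count called 4 members, not 2, in the difference of OPN effects. There 3463 of 24146 genes passed, against 3364 of 15072 as reported. Fitting only the groups compared ended the calls of Ace and Agtr2 in FGF2 plus OPN against FGF2. The cause was not tested. Without scaling by composition (library totals alone), the median of all genes shifted by 0.14 on the log2 scale for FGF2 plus OPN against naive cells and by 0.13 against OPN. Genes higher then made up 5253 of 7667 calls, against 3573 of 7513 as reported, and 5433 of 8493, against 4079 of 8522. No called member changed direction, but Agtr1a passed in FGF2 plus OPN against naive cells and missed in FGF2 against naive cells.

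The replicate block, run although the numbers do not pair the samples, called 4 members in FGF2, 4 in STIA and 5 in the interaction, where the model without it called 5, 3 and 4, and 8 of 18 libraries correlated best with their own number. Of all 15072 genes the block called 8509, 5409 and 7587 in that order, against 8609, 5550 and 7723 without it. The block changed the counts of other list genes by at most 2. Depth limits Agt outside the joint group and Agtr2 in STIA cells, which rest on 1 to 19 counts a library.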
